A study of Mus musculus with 12 samples.

Results

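The 31 genes described here mark the cells that build the blood vessels and the connective tissue of a tumour: 18 endothelial genes, 7 mural genes (of pericytes and vascular smooth muscle) and 6 fibroblast genes. They were taken by symbol from a table of raw counts. All 31 were among its 22738 gene rows and among the 17426 genes with enough counts to be tested, and their lowest count in any library was 28, for Sox18.

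The libraries came from lung tumours of a mouse model of small cell lung cancer. The mice carry floxed Rb1 (Rb1 fl/fl), floxed p53 (p53 fl/fl) and a Myc T58A allele that Cre switches on (Myc lsl/lsl T58A), and tumours were induced at 8 weeks of age by Ad5CGRP-Cre, an adenovirus that carries Cre under the CGRP promoter of neuroendocrine cells, instilled into the trachea. Tumour-bearing mice were randomised by tumour volume on MRI. The labels put 3 libraries in each of 4 groups: control, anti-PD-1 (10 mg/kg into the peritoneum, 2 doses a week for 4 weeks), entinostat (15 mg/kg by mouth each day for 28 days) and the combination of both. Entinostat inhibits class I histone deacetylases, and anti-PD-1 is an antibody against an inhibitory receptor of T cells. The protocol calls the control arm vehicle and lists both methylcellulose, in which entinostat is given, and the isotype antibody Rat IgG2a as controls, without saying which of them a library stands for. Combination libraries were identified from their titles, because their treatment tag mentions only the antibody. Every library carries batch 2, and no label states that a group's libraries came from separate mice. The p-values therefore measure the spread among libraries, which may be technical.

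Endothelial cells line blood vessels. They are sealed to each other by the junction proteins VE-cadherin (Cdh5), PECAM1 (Pecam1) and claudin-5 (Cldn5), grow in response to VEGF through its receptors Kdr and Flt1, and are stabilised by the angiopoietins through the receptor Tek and its relative Tie1. They release PDGF-B, which draws in pericytes that carry its receptor Pdgfrb, while smooth muscle cells with contractile proteins such as Acta2 and Myh11 wrap the larger vessels. Fibroblasts, many of which carry the receptor Pdgfra, lay down and organise the collagen matrix. In the lung the capillaries lie against the alveolar epithelium, so lung tissue next to a tumour is rich in endothelial RNA.

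Promoter sequences are shown for the 3 members that rose in a comparison and had an entry on a chromosome that is printed here, Erg, Cspg4 and Pdgfra, and for the endothelial receptor Tie1, as the endothelial promoter with the most matches to a motif that endothelial transcription factors bind. The sequences are from RefSeq on build GRCm38.p6, which differs from the build mm9 of the counts, and span 250 bases before to 50 bases after the annotated start. Of the 31 members, 17 had an entry, with 22 windows in all. Capitals mark 2 motifs, searched on both strands: the ETS core GGAAG (or its reverse complement CTTCC), bound by the family of transcription factors to which Erg belongs, and the GC box GGGCGG (or CCGCCC). The ETS core was in 13 of the 22 member windows, against 71.4% of all 32851 windows of this length. A GC box was in 8 of the 22, against 35.7% of all windows. The CArG box of smooth muscle promoters, searched in its strict form without mismatches, was in 0 of the 22, against 1.63% of all windows. With so low a share, 0 of 22 is uninformative. The mural genes Tagln, Myh11 and Pdgfrb had no window, so the search does not show that smooth muscle promoters lack the box. A match is a run of letters and does not show that a factor binds there. The Erg window (chr16:95586544-95586843, minus strand, the first of 3) held 1 GC box and 0 ETS cores. Windows 2 and 3 of Erg, which are not printed, each held 1 ETS core and 0 GC boxes. The Cspg4 window (chr9:56864854-56865153, plus strand) held 2 GC boxes, and the Pdgfra window (chr5:75152001-75152300, plus strand) held 0 of either. The Tie1 window (chr4:118489800-118490099, minus strand) held 7 ETS cores.
Erg: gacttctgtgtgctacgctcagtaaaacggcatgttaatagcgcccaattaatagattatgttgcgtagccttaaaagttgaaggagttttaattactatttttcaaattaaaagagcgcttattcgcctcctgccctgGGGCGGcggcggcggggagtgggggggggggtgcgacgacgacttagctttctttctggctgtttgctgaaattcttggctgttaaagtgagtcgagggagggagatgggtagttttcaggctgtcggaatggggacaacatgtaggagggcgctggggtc
Cspg4: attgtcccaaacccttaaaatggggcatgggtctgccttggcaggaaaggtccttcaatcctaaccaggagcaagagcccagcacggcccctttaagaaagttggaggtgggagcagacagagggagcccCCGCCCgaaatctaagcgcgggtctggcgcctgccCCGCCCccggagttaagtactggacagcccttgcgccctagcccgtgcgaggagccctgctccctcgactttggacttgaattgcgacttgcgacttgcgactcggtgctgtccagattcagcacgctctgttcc
Pdgfra: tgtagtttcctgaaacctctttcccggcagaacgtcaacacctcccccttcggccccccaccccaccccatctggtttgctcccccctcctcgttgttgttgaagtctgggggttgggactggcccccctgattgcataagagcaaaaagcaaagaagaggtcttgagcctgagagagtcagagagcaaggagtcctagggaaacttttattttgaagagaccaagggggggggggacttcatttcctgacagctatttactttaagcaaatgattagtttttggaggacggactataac
Tie1: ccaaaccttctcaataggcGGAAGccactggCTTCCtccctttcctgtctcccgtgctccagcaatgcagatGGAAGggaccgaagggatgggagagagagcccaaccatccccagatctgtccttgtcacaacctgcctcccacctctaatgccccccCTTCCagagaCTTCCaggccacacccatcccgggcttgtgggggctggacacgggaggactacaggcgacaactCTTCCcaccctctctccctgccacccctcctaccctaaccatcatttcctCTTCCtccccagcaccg

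The libraries held between 31295987 and 54001886 counts. The 3 structural RNAs Rn45s, Rpph1 and Rmrp took between 7.84% and 36.4% of them. Values below are CPM, counts scaled to a common library size with TMM factors. No pair of the 12 libraries agreed within sampling noise.

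Levels per kilobase of exon allow a rough comparison between genes. The length joins the exons of all annotated transcripts and can exceed that of the transcript expressed, so ranks depend on it. On this scale the matrix protein gene Sparc was the highest of the 31 members, with a mean over the 12 libraries of 53.0 CPM per kilobase. The contractile genes Tagln (25.4) and Acta2 (18.5) and the pericyte gene Rgs5 (19.4), a regulator of G protein signalling, followed on the same scale. Among the endothelial genes Egfl7, a secreted vascular protein, was the highest at 8.00 CPM per kilobase. The VEGF receptor Flt1, with a merged length of 13.5 kilobases, was the lowest of all members at 0.56, with Nos3 next at 0.70. The median over the 18 endothelial genes was 1.39 CPM per kilobase, below the 9.27 of the 7 mural genes and the 3.10 of the 6 fibroblast genes. All 31 genes had counts in every library.

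The members differed in how much they varied between libraries. Egfl7 was the steadiest, with a highest library only 1.98-fold above its lowest, and Vwf, the von Willebrand factor gene, was the least steady at 34.8-fold. The intermediate filament gene Des spanned 21.1-fold and the matrix proteoglycan gene Dcn 26.4-fold. The median ratio of highest to lowest library was 3.75 for the endothelial, 5.55 for the mural and 11.4 for the fibroblast genes.

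**Figure D1:**
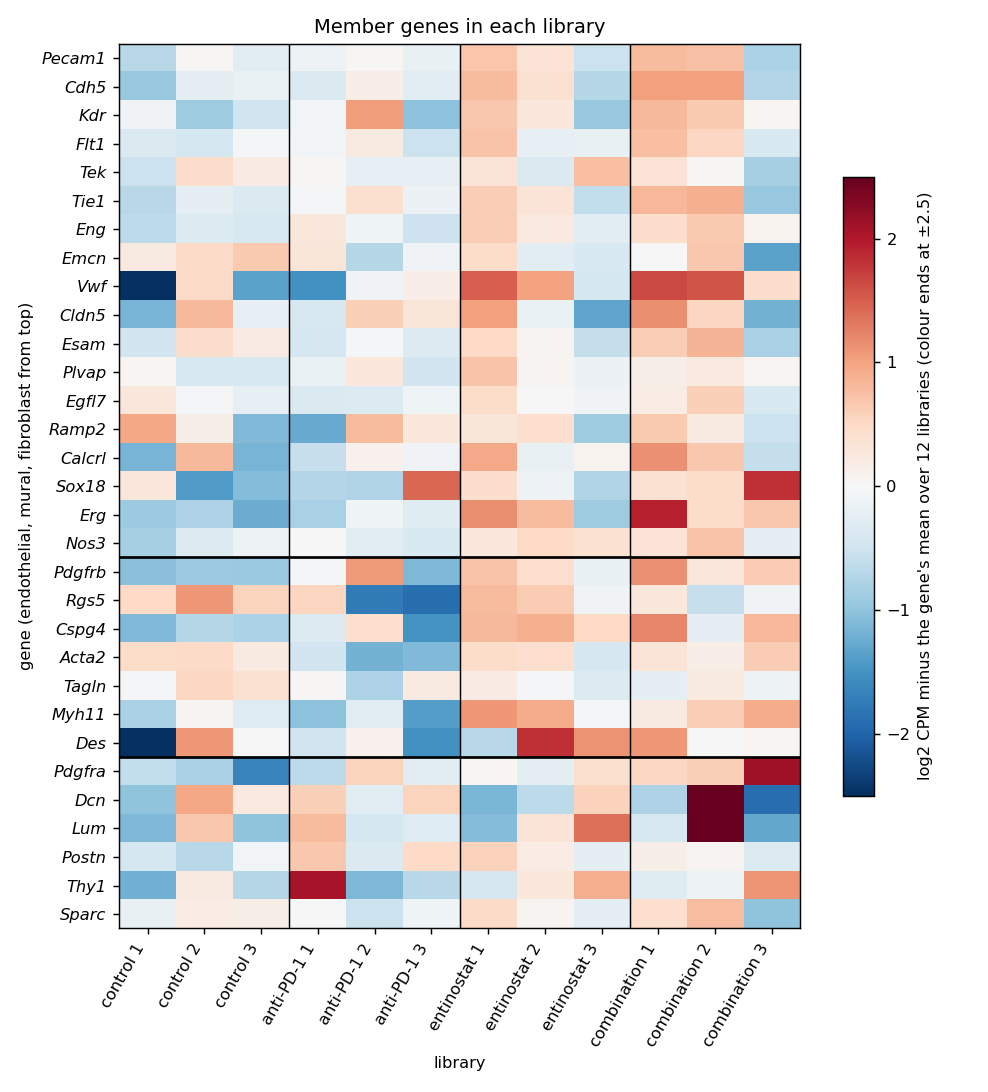
Level of each member gene (rows: endothelial, mural and fibroblast genes from the top, separated by thick lines) in each of the 12 libraries (columns, grouped by treatment), as log2 CPM minus the gene's mean over the 12 libraries. Most endothelial genes are high in entinostat library 1 and combination libraries 1 and 2 and low in control library 1, entinostat library 3 and combination library 3, so that libraries of 1 group differ from each other.

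The 4 endothelial genes with the highest mean CPM, not scaled by exon length, show how the libraries differ. Pecam1, which encodes the adhesion protein PECAM1 (CD31), was 11.4, 18.9 and 15.4 CPM in control libraries 1 to 3, 16.8, 18.7 and 16.3 CPM with anti-PD-1, 29.8, 23.4 and 12.8 CPM with entinostat and 32.1, 30.5 and 10.6 CPM with the combination. For Cdh5, the VE-cadherin gene, the CPM values were 6.38, 10.6 and 11.03 CPM in control libraries 1 to 3, 9.59, 13.8 and 10.3 CPM with anti-PD-1, 21.2, 16.1 and 7.48 CPM with entinostat and 25.2, 25.1 and 7.41 CPM with the combination. In both genes entinostat library 1 and combination libraries 1 and 2 were the 3 highest of the 12, whereas entinostat library 3 and combination library 3 lay within or below the range of the libraries without entinostat. Calcrl, the receptor that binds adrenomedullin together with Ramp2, stood at 6.22, 24.5 and 6.22 CPM in control libraries 1 to 3, 9.33, 15.00 and 13.1 CPM with anti-PD-1, 26.95, 12.3 and 14.8 CPM with entinostat and 30.99, 22.4 and 9.20 CPM with the combination. In Calcrl, control library 2 lay between combination libraries 1 and 2. Egfl7 levels were 33.9, 27.1 and 24.1 CPM in control libraries 1 to 3, 21.9, 22.02 and 25.9 CPM with anti-PD-1, 38.6, 27.8 and 26.4 CPM with entinostat and 31.9, 42.6 and 21.5 CPM with the combination. Each treatment overlapped the control in all 4 genes. In Egfl7 the anti-PD-1 libraries, at 25.9 CPM or below, lay under the entinostat libraries, at 26.4 CPM or above.

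Over the 18 endothelial genes, combination library 1 was the highest library for 7 genes and combination library 2 for 6. Combination library 3, of the same group, was the lowest for 6 genes, and control library 1 was the lowest for 5. Entinostat library 1 and combination library 1 were each among the 3 highest libraries for 13 of the 18, while entinostat library 3 and combination library 3 were each among the 3 lowest for 10.

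The first question was whether entinostat, given alone or with anti-PD-1, went with a difference in these genes. The entinostat main effect, the mean of the log2 fold changes of entinostat without and with the antibody, called 4 of 31 members, all higher: the endothelial transcription factor gene Erg, the pericyte proteoglycan gene Cspg4 (NG2), the smooth muscle myosin gene Myh11 and the fibroblast receptor gene Pdgfra. By class these were 1 of 18 endothelial, 2 of 7 mural and 1 of 6 fibroblast genes. The same test (edgeR's quasi-likelihood test, Benjamini-Hochberg adjusted p below 0.05) called 10.6% of all 17426 genes, and 3.87% of all genes as higher. In bulk tissue, a different number of cells of a type and a different amount of RNA per cell cannot be told apart.

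Erg, an ETS factor that maintains endothelial identity, was at 2.15, 2.38 and 1.72 CPM in control libraries 1 to 3, 2.31, 3.74 and 3.29 CPM with anti-PD-1, 9.04, 7.03 and 2.20 CPM with entinostat and 15.6, 5.53 and 6.48 CPM with the combination. Of the 6 libraries with entinostat, entinostat library 3 lay inside the range of the libraries without it and the other 5 lay above that range. The mean was 2.60 ± 0.76 CPM without and 7.65 ± 4.51 CPM with entinostat (SD, n = 6 each). The main effect on the log2 scale was 1.55 (SE 0.39, edgeR adjusted p = 0.0299).

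Cspg4 had values of 6.22, 8.22 and 7.79 CPM in control libraries 1 to 3, 10.6, 17.9 and 4.77 CPM with anti-PD-1, 23.5, 24.9 and 18.9 CPM with entinostat and 31.2, 11.5 and 23.9 CPM with the combination. Each library with entinostat except combination library 2 was above every library without it, and combination library 2 lay below anti-PD-1 library 2. Its mean was 9.24 ± 4.65 CPM without and 22.3 ± 6.61 CPM with entinostat (SD, n = 6 each), a main effect of 1.30 (SE 0.32, edgeR adjusted p = 0.0278). Myh11, a marker of differentiated smooth muscle, was measured at 4.01, 7.37 and 5.62 CPM in control libraries 1 to 3, 3.44, 5.86 and 2.69 CPM with anti-PD-1, 14.9, 13.4 and 6.84 CPM with entinostat and 8.18, 10.8 and 13.4 CPM with the combination. Entinostat library 3 was the 1 library with entinostat that lay within the range of those without. The means were 4.83 ± 1.75 and 11.2 ± 3.22 CPM (SD, n = 6 each), and the main effect was 1.24 (SE 0.29, edgeR adjusted p = 0.0253).

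Pdgfra, the PDGF receptor of fibroblasts, was at 14.4, 12.5 and 6.88 CPM in control libraries 1 to 3, 13.97, 32.2 and 18.4 CPM with anti-PD-1, 22.8, 18.7 and 29.02 CPM with entinostat and 31.5, 33.02 and 94.95 CPM with the combination. Combination library 3 was far above the other libraries, and anti-PD-1 library 2, without entinostat, was close to combination libraries 1 and 2. The other fibroblast members did not share this peak as a class. In combination library 3, Dcn (3.62 CPM), Lum (1.31 CPM) and Sparc (95.4 CPM) were at their lowest of the 12 libraries. Postn, at 31.97 CPM, was below its median of 40.4 there, and Thy1, at 13.9 CPM, was above its median of 5.55. The means were 16.4 ± 8.59 CPM without and 38.3 ± 28.3 CPM with entinostat (SD, n = 6 each), with a main effect of 1.18 (SE 0.33, edgeR adjusted p = 0.0430).

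**Figure D2:**
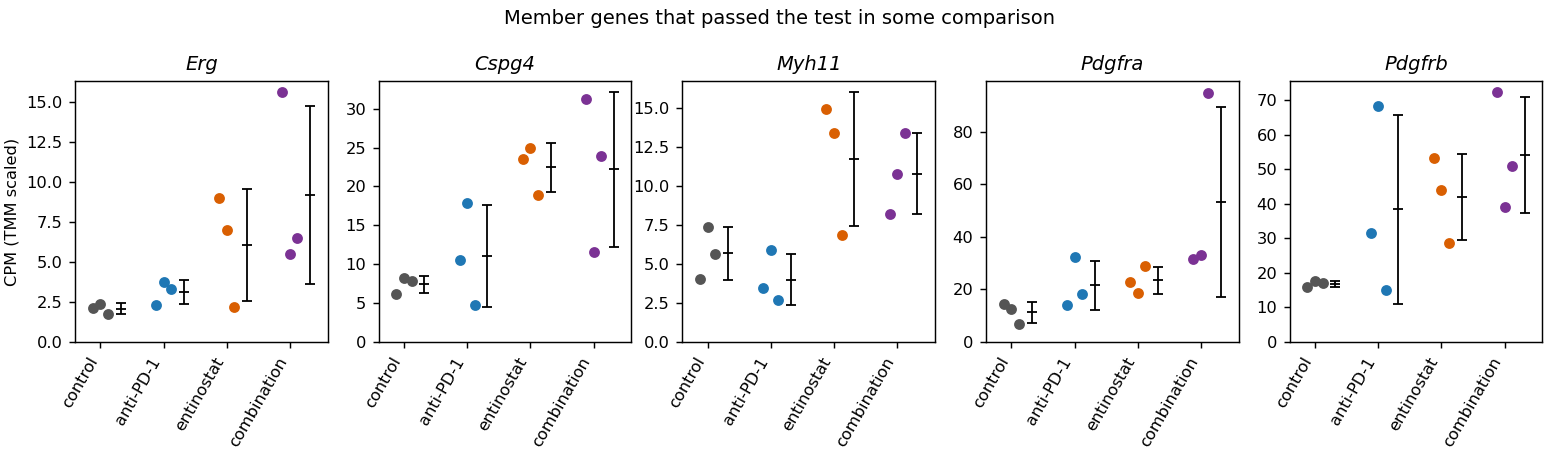
CPM of Erg, Cspg4, Myh11, Pdgfra and Pdgfrb (1 panel each, separate vertical axes from 0) in each library, in replicate order within a group, with the mean ± SD of the 3 libraries of a group as a bar beside the points. The 3 control libraries lie below the 3 combination libraries in each panel, and anti-PD-1 library 2 (Pdgfrb), combination library 1 (Erg) and combination library 3 (Pdgfra) stand above the rest of their groups.

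None of the 31 members separated the 6 libraries with entinostat from the 6 without; 2.01% of all genes tested were higher without any overlap in this split and 2.32% lower. Under alternative fits with 1 library left out, between 0 and 5 members passed, and between 600 and 2022 of all genes. The count of members was 0 without anti-PD-1 library 1, entinostat library 1 or entinostat library 2. It was 1 without control library 1 (Myh11), anti-PD-1 library 3 (Cspg4), combination library 1 (Myh11) or combination library 3 (Erg). In the other 5 fits it was 3 to 5. With DESeq2 in place of edgeR 7 members passed, the 4 named with Acta2, Pdgfrb and Vwf. DESeq2 also called more of all genes, 3422 against 1849 with edgeR.

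Among members that did not pass, Vwf had the largest main effect, 1.60 (SE 0.58, edgeR adjusted p = 0.0936), and is singled out here after its values were seen. Vwf, which endothelial cells store and release for platelet adhesion, was at 0.822, 12.7 and 3.59 CPM in control libraries 1 to 3, 3.18, 8.54 and 10.2 CPM with anti-PD-1, 25.7, 18.1 and 6.72 CPM with entinostat and 28.6, 27.1 and 12.3 CPM with the combination. Control library 1 was lower than any other library, and control library 2 lay above entinostat library 3 and combination library 3. Markers of platelets, which also contain von Willebrand factor, had summed levels of 2.45 to 9.52 CPM in the control, 7.74 to 12.6 in the anti-PD-1, 8.88 to 9.87 in the entinostat and 14.6 to 22.9 in the combination group (5 genes). None of the 4 tested platelet genes passed with edgeR or DESeq2, 1 had an unadjusted p under 0.05, and their part in the Vwf values was not tested. The junction genes Cdh5 (0.73, SE 0.34, edgeR adjusted p = 0.178) and Pecam1 (0.52, SE 0.29, adjusted p = 0.256) did not pass either.

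The other endothelial members are given by role, with the main effect of entinostat on the log2 scale after the lowest, median and highest CPM of the 12 libraries. Among the receptors, Kdr ran from 5.02 over 10.2 to 20.9 CPM (0.46, SE 0.37) and its decoy-like relative Flt1 from 4.93 over 6.62 to 12.1 CPM (0.46, SE 0.27). Tek ran from 2.16 over 3.90 to 6.45 CPM (0.14, SE 0.31), and Tie1 from 2.74 over 4.96 to 9.73 CPM (0.50, SE 0.34). The 4 receptors had their highest library in different places: Kdr in anti-PD-1 library 2, Flt1 in combination library 1, Tie1 in combination library 2 and Tek in entinostat library 3. Eng, at 4.17 to 10.3 CPM, and Nos3, at 1.55 to 4.50 CPM, both had control library 1 lowest and combination library 2 highest, with main effects of 0.59 (SE 0.24, edgeR adjusted p = 0.128) and 0.66 (SE 0.27, adjusted p = 0.134). The tight junction gene Cldn5 ran from 1.16 to 6.52 CPM (0.18, SE 0.51), the junctional adhesion gene Esam from 3.85 to 12.2 CPM (0.30, SE 0.32) and Plvap, which builds the diaphragms of fenestrae and caveolae, from 4.77 to 10.8 CPM (0.36, SE 0.23). The smallest adjusted p among these 9 genes was that of Eng.

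Most members that did not pass had positive values. Of the 31 members, 28 had a positive main effect, against 51.3% of all genes tested, and the median log2 fold change was 0.50 against 0.02 over all genes. The endothelial median was 0.48 (16 of 18 positive), the mural median 0.91 (6 of 7) and the fibroblast median 0.27 (6 of 6). The 3 negative members were Emcn, which encodes the endothelial sialoprotein endomucin, Tagln, and Ramp2, the partner of Calcrl. Their main effects lay between −0.20 and −0.08. Another scaling, upper quartile factors in place of TMM, moved the median of all genes to 0.15, and with it 29 of 31 members were positive and 5 passed, the 4 named and Acta2. Under that scaling 1046 of all genes were called higher and 632 lower, against 674 higher and 1175 lower with TMM.

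**Figure D3:**
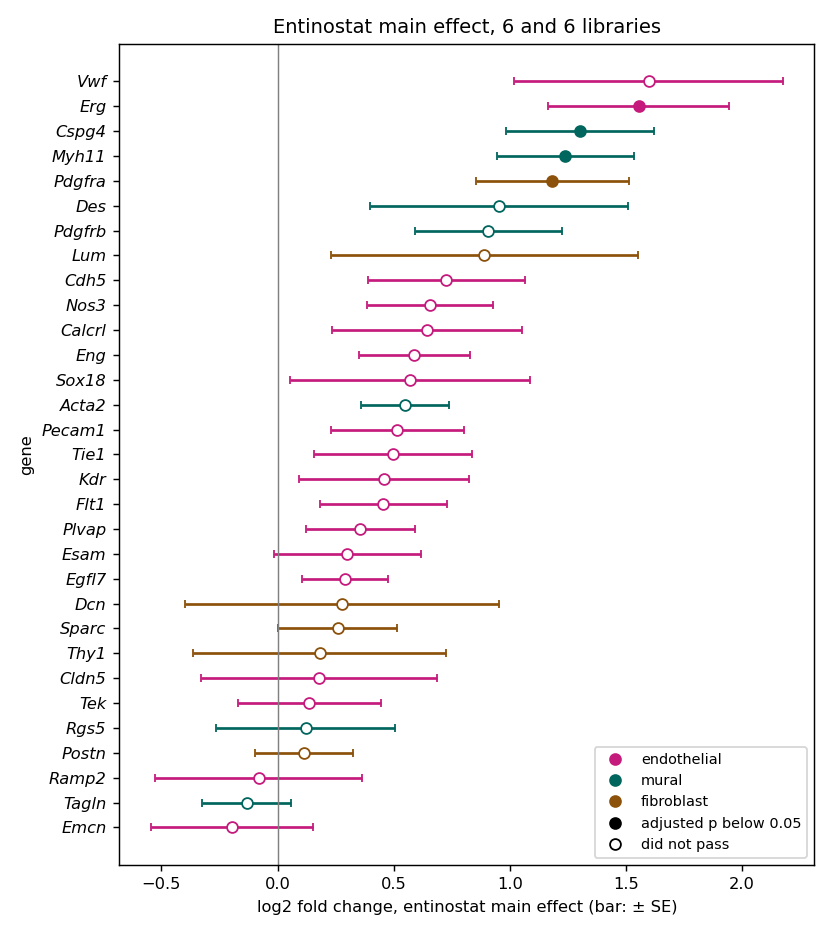
Log2 fold change of the entinostat main effect for each of the 31 members (6 libraries with and 6 without entinostat), with ± SE as the bar, coloured by class; filled points passed an adjusted p of 0.05 and open points did not. All but 3 members lie to the right of 0, and the 4 filled points, Erg, Cspg4, Myh11 and Pdgfra, lie between 1.18 and 1.55.

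Mural genes did not follow a single pattern. Pdgfrb, the PDGF-B receptor of pericytes, was at 15.9, 17.5 and 17.2 CPM in control libraries 1 to 3, 31.6, 68.4 and 15.1 CPM with anti-PD-1, 53.4, 44.01 and 28.7 CPM with entinostat and 72.5, 39.2 and 50.8 CPM with the combination. All 3 entinostat and all 3 combination libraries exceeded the 3 control libraries, and anti-PD-1 library 2 had the second highest value, after combination library 1. Rgs5 was at 107, 159.8 and 111 CPM in control libraries 1 to 3, 109, 22.4 and 20.3 CPM with anti-PD-1, 131, 117 and 70.9 CPM with entinostat and 90.3, 50.7 and 70.5 CPM with the combination. Here the control libraries were among the highest, and anti-PD-1 libraries 2 and 3 were the lowest 2 of the 12. The Rgs5 main effect of entinostat was 0.12 (SE 0.39, edgeR adjusted p = 0.860). The other abundant mural genes encode contractile proteins. Acta2, smooth muscle actin, was at 51.4, 52.1 and 43.9 CPM in control libraries 1 to 3, 26.9, 16.6 and 17.6 CPM with anti-PD-1, 51.9, 50.6 and 28.2 CPM with entinostat and 47.1, 42.5 and 58.3 CPM with the combination. Tagln, an actin-binding protein of smooth muscle, was at 47.4, 70.2 and 64.1 CPM in control libraries 1 to 3, 50.2, 28.7 and 57.7 CPM with anti-PD-1, 56.4, 47.6 and 38.6 CPM with entinostat and 41.9, 57.7 and 44.99 CPM with the combination. The 3 anti-PD-1 libraries had the lowest 3 values of Acta2 in the series, and in Tagln the groups overlapped.

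Because Pdgfrb and Cspg4 on the one hand and Rgs5 on the other are all pericyte genes, their ratio of counts within a library, chosen after the values were seen, was also computed. Pdgfrb per Rgs5 was 0.149, 0.110 and 0.155 in the control, 0.291, 3.05 and 0.745 in the anti-PD-1, 0.407, 0.376 and 0.404 in the entinostat and 0.803, 0.773 and 0.721 in the combination libraries. Cspg4 per Rgs5 was 0.0584, 0.0514 and 0.0705 in the control, 0.0972, 0.796 and 0.235 in the anti-PD-1, 0.180, 0.213 and 0.267 in the entinostat and 0.346, 0.227 and 0.339 in the combination libraries. In both ratios each treated library was above each control library, and the entinostat and combination libraries were closer together than the anti-PD-1 libraries. No test was made of these ratios, since with 3 libraries against 3 an exact permutation p cannot go below 0.1 and the pairs were picked for their difference.

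**Figure D4:**
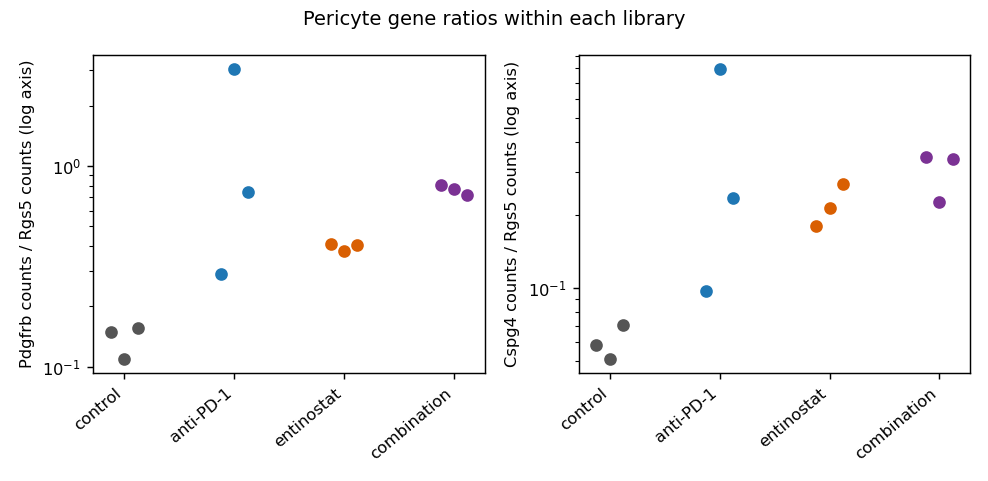
Ratio of Pdgfrb counts (left) and Cspg4 counts (right) to Rgs5 counts within each library, on log axes, by group, with 1 point per library. The 3 control libraries, at 0.110 to 0.155 on the left and 0.0514 to 0.0705 on the right, lie below every treated library.

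Des, the intermediate filament protein of muscle and of many pericytes, ranged from 4.42 CPM in control library 1 to 93.5 CPM in entinostat library 2 with a median of 26.7 over the 12 libraries. Its main effect was 0.96 (SE 0.56, edgeR adjusted p = 0.277). Markers of heart and skeletal muscle, which also contain desmin, summed to 5.91 to 44.9 CPM in the control, 11.2 to 25.9 in the anti-PD-1, 26.7 to 64.8 in the entinostat and 13.03 to 24.98 CPM in the combination group (7 genes). Of the 6 tested, 1 rose in the entinostat main effect, Actn2, where 3.87% of all genes were called higher. The part of these markers in the Des values was not tested. The ventricular myosin light chain gene Myl2 was at or below 0.35 CPM in every library.

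No fibroblast gene other than Pdgfra passed in any comparison. Sparc, a collagen-binding matrix protein, was at 168, 218 and 213 CPM in control libraries 1 to 3, 191, 131 and 177 CPM with anti-PD-1, 267, 199.8 and 164 CPM with entinostat and 257, 327 and 95.4 CPM with the combination. Postn, the matrix protein periostin, was at 29.7, 25.02 and 38.3 CPM in control libraries 1 to 3, 64.2, 31.5 and 57.2 CPM with anti-PD-1, 60.2, 45.6 and 34.4 CPM with entinostat and 44.5, 42.5 and 31.97 CPM with the combination. Neither gene separated any treatment from the control. The collagen-associated proteoglycan genes Dcn (3.62 to 95.6 CPM, median 13.7) and Lum (1.31 to 17.4 CPM, median 2.47) were both highest in combination library 2 and lowest in combination library 3. Adipocyte markers also had their highest mean log2 CPM, 1.216, in combination library 2, against −3.31 to 0.24 in the other 11, and their part in the Dcn and Lum values was not tested. Thy1, a surface protein of fibroblasts that T cells and neurons also carry, ranged from 2.80 to 26.7 CPM and was highest in anti-PD-1 library 1. Markers of T and NK cells had their highest mean log2 CPM, −0.04, in that same library, against −2.60 to −0.27 in the other 11. Neuroendocrine markers, at 6.70, and B cell markers, at 2.50, were also at their highest there. The part of any of these cell types in the Thy1 value was not tested.

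The comparison of the combination with the control asks how tumours given both agents differed. Again 4 of 31 members were called, all higher: Pdgfra, Erg, Pdgfrb and Cspg4. The share of all genes called in this comparison was 11.7%, with 3.88% of all genes higher. These were 677 higher and 1356 lower genes, which upper quartile factors turned into 1100 higher and 611 lower. Pdgfra went from 11.3 ± 3.91 to 53.2 ± 36.2 CPM (SD, n = 3 each), or 2.24 on the log2 scale (SE 0.48, edgeR adjusted p = 0.0177). Erg went from 2.08 ± 0.33 to 9.22 ± 5.58 CPM, or 2.14 (SE 0.56, adjusted p = 0.0334). Pdgfrb rose from 16.8 ± 0.88 to 54.2 ± 16.9 CPM, or 1.68 (SE 0.45, adjusted p = 0.0372), and Cspg4 from 7.41 ± 1.05 to 22.2 ± 9.96 CPM, or 1.58 (SE 0.45, adjusted p = 0.0443).

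In these 4 genes each combination library was above each control library. The same held for Kdr, for the TGF-beta co-receptor Eng, for the endothelial transcription factor gene Sox18 and for Myh11, so that 8 of 31 members were higher without overlap, against 15.2% of all genes tested. Rgs5 was the 1 member that was lower without overlap, against 16.7% of all genes, with a value of −0.83 on the log2 scale (SE 0.55, edgeR adjusted p = 0.326). The median over the 31 members was 0.72, against 0.05 over all genes, and 26 of 31 were positive. Leaving out combination library 3 left 0 members and 383 of all genes called, and Pdgfra then had a log2 fold change of 1.51. Without control library 1, control library 3, entinostat library 2 or combination library 1 the 1 call was Pdgfra. Without control library 2 the 2 calls were Pdgfra and Vwf, and without anti-PD-1 library 1 they were Erg and Pdgfra. The other 5 such fits called 3 or 4 members.

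Entinostat alone against the control called 0 of 31 members with edgeR, where it called 5.27% of all genes. Of the members, 5 had an unadjusted p under 0.05. DESeq2 called 3 members and 2396 of all genes. Over all genes the edgeR calls split into 226 higher and 693 lower, or 325 and 236 with upper quartile factors. The smallest adjusted p was 0.0625, for Cspg4, with a log2 fold change of 1.60 (SE 0.45). Each entinostat library was above each control library for 5 members, Pdgfrb, Cspg4, Pdgfra, Eng and the endothelial nitric oxide synthase gene Nos3, against 13.1% of all genes tested. Entinostat, anti-PD-1 and combination were all compared with the same 3 control libraries. No member separated the 9 treated from the 3 control libraries, where 2.71% of all genes were higher and 6.55% lower.

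Anti-PD-1 alone against the control called 0 of 31 members with edgeR, and 4 had an unadjusted p under 0.05. DESeq2 called 1 member and 704 of all genes. Over all genes tested, edgeR called 1, or 0.00574%. That gene, Lars2, which encodes the mitochondrial leucyl-tRNA synthetase, is no member and was lower. Acta2 was at 49.1 ± 4.55 CPM in the control and 20.4 ± 5.69 CPM in the anti-PD-1 group (SD, n = 3 each), or −1.27 on the log2 scale (SE 0.27, edgeR adjusted p = 0.110), with no overlap between the groups. It was the 1 member that was lower without overlap, against 10.7% of all genes, and Tie1 was the 1 member that was higher, against 6.79%. The anti-PD-1 libraries also had the highest shares of structural RNA in the series, 20.5% to 36.4%, against 7.84% to 19.3% in the other groups, and the part of that share in the Acta2 value was not tested beyond a fit without those RNAs, in which Acta2 did not pass either.

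The main effect of anti-PD-1 called 0 members with edgeR, 4 of which had an unadjusted p under 0.05, and the interaction of the 2 agents called 0, with 2 at that unadjusted level. The combination against anti-PD-1 alone called 0 members (5 unadjusted) and the combination against entinostat alone 0 (1 unadjusted). The share of all genes called was 0% in each of these 4 comparisons. DESeq2 called 2 members in the combination against anti-PD-1 and 0 in the other 3. The interaction, which asks whether the response to entinostat differed with the antibody, ranged from −1.223 (Thy1) to 1.53 (Dcn) on the log2 scale over the 31 members, with no adjusted p below 0.692.

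The mean level of the endothelial genes was highest in the same libraries as that of alveolar and macrophage markers. The 6 libraries with the highest mean log2 CPM over the 18 endothelial genes were control library 2, anti-PD-1 library 2, entinostat libraries 1 and 2 and combination libraries 1 and 2, at 2.62 or above, with the other 6 at 2.55 or below. The same 6 libraries had the highest mean over 13 markers of the alveolar epithelium, at 4.40 or above against 3.47 or below in the rest. They also had the highest mean over 12 macrophage and monocyte markers (3.45 or above against 2.57 or below) and over 32 other endothelial genes, 31 of them tested (2.10 or above against 1.81 or below). Other lists shared fewer of these 6 libraries among their own 6 highest: airway markers 5, the mural members 4 and the fibroblast members 3. Single endothelial genes also differed, and Sox18, Tek and Ramp2 each had their highest library outside the 6. These values share a library and its scaling, and they are given as a description.

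Summed over the 13 alveolar markers the level was 58.2 to 473 CPM in the control, 75.5 to 520 in the anti-PD-1, 177 to 700 in the entinostat and 83.7 to 642 in the combination group. In control library 1, 4 of the 13 were at 0 counts, the surfactant genes Sftpa1 and Sftpd, the phosphate transporter gene Slc34a2 and the claudin gene Cldn18, and Sftpc, the defining gene of alveolar type II cells, was at 0.0979 CPM. Sftpc was at 201 CPM in control library 2. Of the 13 markers 0 passed in the entinostat main effect with edgeR or DESeq2, and 0 had an unadjusted p under 0.05; the median log2 fold change was 1.02. The macrophage and monocyte markers summed to 67.9 to 230 CPM in the control, 109 to 251 in the anti-PD-1, 123 to 315 in the entinostat and 86.5 to 327 in the combination group, and 0 of 12 passed with edgeR (2 at an unadjusted p under 0.05, 1 with DESeq2; median 0.60). Markers of neuroendocrine cells, the tumour's own lineage, summed to 1332 to 2068 CPM in the control, 956 to 1547 in the anti-PD-1, 691 to 1188 in the entinostat and 540 to 950 in the combination group. In the entinostat main effect 5 of these 12 fell, against 1175 of all 17426 genes.

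With the mean alveolar level of each library as a covariate, 0 members passed in the entinostat main effect. Over all genes the calls in this effect fell from 1849 to 290 with the covariate. With so few calls left, a count of 0 does not set the members apart from other genes. The log2 fold changes under that fit were 1.17 for Erg (edgeR adjusted p = 0.175), 1.16 for Cspg4 (0.112), 1.06 for Myh11 (0.101) and 1.23 for Pdgfra (0.0928). Pecam1 was at 0.10 (SE 0.31) and Cdh5 at 0.22 (SE 0.38) under it. For the combination against the control, Pdgfra alone of the members still passed, at 2.31 (adjusted p = 0.0495), and the calls over all genes fell from 2033 to 387. The endothelial median was 0.22 with the covariate, against 0.48 without it, the mural median 0.64 against 0.91 and the fibroblast median 0.39 against 0.27.

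**Figure D5:**
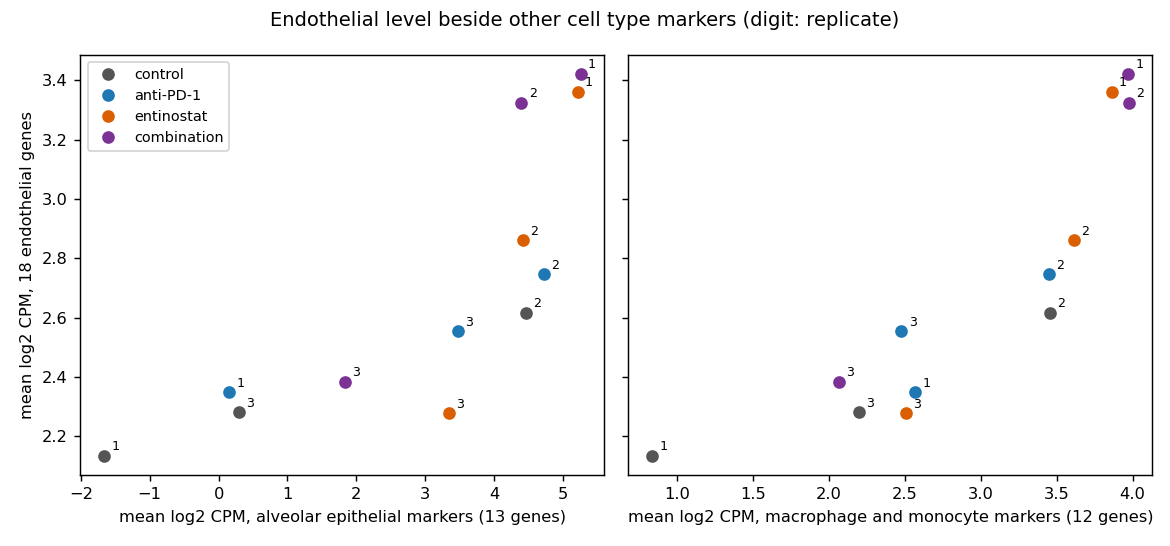
Mean log2 CPM of the 18 endothelial genes (vertical axis) against that of 13 alveolar epithelial markers (left) and 12 macrophage and monocyte markers (right), with 1 point per library, coloured by group and numbered by replicate. The same 6 libraries, from all 4 groups, are highest on the vertical and on both horizontal axes.

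Markers of other cell types were examined in the same way. None passed in the entinostat main effect with edgeR or DESeq2, or had an unadjusted p under 0.05 with edgeR, for airway (0 of 7), T and NK (0 of 8), B cell (0 of 4), mesothelial (0 of 4), Schwann and glia (0 of 3), erythroid (0 of 2) or adipocyte (0 of 2) genes. Their median log2 fold changes were −0.34, −0.31, −0.28, 0.33, 0.28, 0.39 and 0.57, in that order.

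The ligands and receptors that drive vessel growth were listed apart from the members. Of 30 such genes, 4 rose in the entinostat main effect and 0 fell, with a median log2 fold change of 0.40. Of all genes tested, 3.87% were called higher in this effect. Angpt2, which encodes the angiopoietin that destabilises vessels and comes mostly from endothelial cells, was at 7.10, 11.7 and 17.2 CPM in control libraries 1 to 3, 12.9, 13.1 and 10.4 CPM with anti-PD-1, 28.2, 28.1 and 20.5 CPM with entinostat and 30.2, 27.4 and 18.4 CPM with the combination. Every library with entinostat was above every library without it, and the main effect was 1.08 (SE 0.23, edgeR adjusted p = 0.0173). Angpt2 passed in each of the 12 fits that left out a library, but not with the alveolar covariate, where it was at 0.91 (SE 0.28, edgeR adjusted p = 0.101) and 0 of the 30 genes passed. Pdgfb, the endothelial ligand of Pdgfrb, was at 1.59, 2.09 and 2.05 CPM in control libraries 1 to 3, 1.74, 3.14 and 1.30 CPM with anti-PD-1, 7.01, 6.24 and 2.78 CPM with entinostat and 7.69, 5.08 and 5.53 CPM with the combination. Its main effect was 1.53 (SE 0.33, adjusted p = 0.0187), and entinostat library 3 was the 1 library with entinostat below anti-PD-1 library 2.

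The receptor gene Ephb4, a marker of veins, went from 3.93 ± 1.17 to 15.7 ± 15.8 CPM (1.86, SE 0.46, adjusted p = 0.0289) and the VEGF family ligand gene Pgf from 3.93 ± 1.36 to 8.35 ± 2.35 CPM (SD, n = 6 each; 1.07, SE 0.28, adjusted p = 0.0363). Ephb4 was highest in combination library 3, at 46.9 CPM. Of the 12 fits that left out a library, Pdgfb passed in 9, Ephb4 in 6 and Pgf in 5. With the alveolar covariate their edgeR adjusted p was 0.0966, 0.0790 and 0.132. Angpt1, the angiopoietin that activates Tek, was at 100.01, 4.43 and 4.71 CPM in control libraries 1 to 3, 3.68, 3.49 and 13.9 CPM with anti-PD-1, 9.28, 2.23 and 2.99 CPM with entinostat and 3.86, 5.08 and 1.01 CPM with the combination. Control library 1 alone stood far above the rest, and the main effect was −1.995 (SE 0.81, adjusted p = 0.129). Vegfa, the main ligand of Kdr, was at 68.6, 66.1 and 183 CPM in control libraries 1 to 3, 87.5, 96.8 and 113 CPM with anti-PD-1, 86.5, 100.4 and 123 CPM with entinostat and 93.4, 54.02 and 134 CPM with the combination. Its groups overlapped and its main effect was −0.06 (SE 0.28, adjusted p = 0.908). In the combination against the control 5 of the 30 rose, with Tgfb1, a fibroblast-activating cytokine, beside the 4 named (log2 fold change 1.87, SE 0.47, adjusted p = 0.0301). That comparison called 3.88% of all genes higher.

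A further 31 endothelial genes gave 0 calls in the entinostat main effect with edgeR, with 5 at an unadjusted p under 0.05, 1 call with DESeq2 and a median of 0.38. With the alveolar covariate the median turned to −0.03, and 15 of the 31 were positive in place of 25. The 2 with the highest levels, the transcription factor genes Prox1 and Nr2f2, averaged 82.1 and 38.9 CPM over the 12 libraries. Prox1 is also known from neuroendocrine tumour cells. Of 23 other mural genes 3 rose: the pericyte receptor gene Notch3 (1.00, SE 0.29, adjusted p = 0.0488), the tropomyosin gene Tpm2 (1.14, SE 0.28, adjusted p = 0.0278) and the myosin kinase gene Mylk (1.15, SE 0.28, adjusted p = 0.0290), with a median of 0.62 over the list. The share of all genes called higher was 3.87%. Tpm2 passed in 7, Mylk in 4 and Notch3 in 2 of the 12 fits that left out a library. With the alveolar covariate 0 of the 23 passed, at edgeR adjusted p of 0.0816 for Tpm2, 0.127 for Mylk and 0.120 for Notch3.

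Other fibroblast and matrix genes had the most calls in the entinostat main effect, 8 higher and 0 lower of 35 tested, with a median of 0.71. These lists differ in size, and 3.87% of all genes were called higher. Gli1, a transcription factor of Hedgehog signalling that marks a perivascular fibroblast population, was at 0.607, 0.538 and 0.380 CPM in control libraries 1 to 3, 1.30, 0.353 and 0.967 CPM with anti-PD-1, 2.24, 3.19 and 9.23 CPM with entinostat and 6.17, 5.94 and 9.78 CPM with the combination. No library with entinostat overlapped those without, and the main effect was 3.15 (SE 0.46, edgeR adjusted p = 0.00662). Col6a1, a collagen VI chain, was at 8.20, 15.5 and 15.4 CPM in control libraries 1 to 3, 34.8, 26.7 and 17.3 CPM with anti-PD-1, 41.04, 43.9 and 31.5 CPM with entinostat and 44.1, 41.5 and 33.9 CPM with the combination. Its main effect was 1.09 (SE 0.22, adjusted p = 0.0144), with entinostat library 3 and combination library 3 just below anti-PD-1 library 1. The collagen cross-linking enzyme gene Lox (1.32, SE 0.33, adjusted p = 0.0294), the proteoglycan gene Ogn (1.35, SE 0.33, adjusted p = 0.0289) and the collagen VI chain gene Col6a3 (1.45, SE 0.36, adjusted p = 0.0300) rose as well. Gli1 and Col6a1 passed in each of the 12 fits that left out a library, Lox and Ogn in 5 and Col6a3 in 3, and with the alveolar covariate 1 of the 35 passed, Gli1, at 3.503 (SE 0.48, edgeR adjusted p = 0.0234). In the combination against the control 8 of the 35 rose, and in entinostat alone against the control 4 did, with Gli1 at 3.25 (SE 0.65, adjusted p = 0.0225). Over all 17426 genes these 2 comparisons called 677 and 226 higher.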

How the data were processed

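Gene expression was measured by poly(A) RNA-seq of flash-frozen, dissected tumour in 12 libraries, 3 in each of 4 groups taken from the titles. The values are raw counts per gene as deposited by the authors; the labels tie the table to TPMCalculator, and the submitters' processing notes list the aligner STAR 2.5.4a, the trimmers Trimmomatic 0.36 and Trim Galore, build mm9, R 3.5.1 and DESeq2 1.22.2. Annotation, strand setting and treatment of multiply mapping reads were not given in the sources used here. Overlapping genes and near-identical copies therefore could not be told apart. Among counts from 1 to 20, 65.3% to 77.2% per library were even, so both mates of a pair may have been counted; halved counts were tried. With 31295987 to 54001886 counts per library, counting error is small beside the spread between libraries.

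In R 4.3.3, edgeR 4.0.16 kept 17426 genes (filterByExpr), scaled them with TMM and fitted 1 mean per group to all 12 libraries. The robust quasi-likelihood test gave log2 fold changes, SE and p-values for 8 comparisons (3 treatments against the control, the combination against each agent, 2 main effects and the interaction), adjusted by Benjamini-Hochberg over all genes at 0.05. CPM is TMM-scaled; log2 CPM uses a prior count of 2. Exon lengths are merged GENCODE M21 exons. The alternatives were RLE and upper quartile factors, no filter, DESeq2 1.42.0, a replicate block, halved counts, counts without 3 structural RNAs, an alveolar covariate and each library left out.

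The members and the gene lists were chosen with earlier results of these data known. By rule, values in every library are given for members that passed in a comparison and for the 4 endothelial, 3 mural and 3 fibroblast members with the highest mean CPM. From the other lists the genes named, with or without values in every library, are up to 5 that passed in the entinostat main effect by smallest adjusted p and up to 3 in another comparison, or else the 2 with the highest level, and always Vegfa, Angpt1, Angpt2 and Pdgfb. Of 208 list genes that are no members, 207 had a row. The fits of 2 comparisons were also checked on simulated counts in which 200 of 17426 genes were changed. For the entinostat main effect 22% of 2-fold and 73% of 4-fold changes were recovered with 4.34% false calls, and for the combination against the control 4.67% and 50.3% with 6.67% false calls. In the data 1849 and 2033 genes were called in these comparisons, more than were changed in the simulation. The recovery rates of the real tests may therefore differ from these.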

Additional observations from a re-analysis of the deposited data

Results flagged for a closer look

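In 62 sets of 6 libraries (31 genes, with and without entinostat), 7 held a library far from the other 5. The cutoff flags about 1 in 20 sets of values from 1 normal distribution. The CPM values were not log-transformed and each set joins 2 treatment groups, so that rate need not hold here. Whether 7 is more than chance would give was not tested. Among the libraries without entinostat, anti-PD-1 library 2 stood apart in Kdr, at 20.9 CPM against 5.02 to 9.76, and in Pdgfrb, at 68.4 CPM against 15.1 to 31.6. Anti-PD-1 library 3 stood apart in Sox18, at 4.50 CPM against 0.62 to 2.02, and anti-PD-1 library 1 in Thy1, at 26.7 CPM against 2.80 to 7.51.

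Among the libraries with entinostat, combination library 3 stood apart in Sox18, at 5.91 CPM against 0.98 to 2.29, and in Pdgfra, at 94.95 CPM against 18.7 to 33.02. Combination library 2 stood apart in Dcn, at 95.6 CPM against 3.62 to 20.3. In Sox18 the far library was the same in number, replicate 3, in both sets, but the labels give these numbers no shared origin.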

How the results depend on the processing

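Of the 4 members called in the entinostat main effect, RLE factors, no filter on low counts, halved counts and counts without structural RNAs each called the same 4, and upper quartile factors added Acta2. DESeq2 called 7 members, a replicate block 1 (Myh11) and an alveolar covariate 0; leaving out a library gave 0 to 5. The 4 members called in the combination against the control became 1 (Pdgfra) with the replicate block, 1 with the alveolar covariate and 0 to 4 without a library. DESeq2 called 3 members for entinostat against the control, where leaving out a library gave 0 to 1, and 1 member for anti-PD-1 against the control and 2 for the combination against anti-PD-1. Replicate numbers did not pair the libraries: 8 of 18 same-numbered pairs had correlated deviations above 0.1 (range −0.29 to 0.23), and 1 of 12 libraries correlated best with its own number.

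Over all genes, the 1849 calls of the entinostat main effect became 3422 with DESeq2, 974 with the replicate block, 290 with the alveolar covariate and 600 to 2022 without a library. The 2033 calls of the combination against the control became 3591, 1087, 387 and 306 to 2038 in the same order, and the 919 of entinostat against the control became 2396, 321, 0 and 2 to 1002, or 561 with upper quartile factors. For anti-PD-1 against the control the 1 call became 704 with DESeq2, 0 with the replicate block and 0 to 2 without a library. DESeq2 called 103 genes in the anti-PD-1 main effect, 60 in the interaction, 424 in the combination against anti-PD-1, where the covariate gave 1, and 1 in the combination against entinostat. The cause of these differences was not tested.

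Of 740 values of single genes and class medians recomputed under the alternatives, 558 kept their call or moved by less than the spread, 172 no longer passed, 7 newly passed, 3 moved and 0 reversed. Among the list medians, which are not in that count, the alveolar covariate changed the sign of 3: other endothelial genes from 0.38 to −0.03, mesothelial markers from 0.33 to −0.23 and the alveolar markers that form the covariate from 1.02 to −0.13. With 3 libraries a group, most simulated 2-fold changes were missed, in counts with fewer changed genes than were called in the data. Not passing does not show that a member was unchanged.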
